A study of Mus musculus with 2 samples.

Results

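The genes described here encode the voltage-gated sodium, calcium and potassium channels and their auxiliary subunits. They were taken from the filtered count table by symbol, as the Scn, Cacna1, Cacna2d, Cacnb, Cacng, Kcna to Kcnd, Kcnh, Kcnq and Kcnab series, which gave 62 of 15474 listed genes: 9 for sodium, 24 for calcium and 29 for potassium channels. The antisense RNA Kcnq1ot1 and the Kcnip genes were not among them. Freshly isolated cells of the dentate gyrus (DG) were compared with MeOH-fixed cells stored for 3 weeks before rehydration, all from C57BL/6J mice aged 4 to 5 weeks. Single cells were sorted by FACS into a 384-well plate per condition and sequenced by SORT-seq, a plate-based version of CEL-seq2 that counts unique molecular identifiers (UMIs) at the 3′ end of transcripts. The fresh plate held cells pooled from 3 mice and sorted as negative for the dead-cell stain Sytox AADvanced, and the MeOH-fixed plate held cells pooled from 4 age-matched mice. With 1 plate and 1 pool per condition there was no replicate of either, so no difference between conditions was tested, and all intervals below cover counting error only.

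Voltage-gated channels open when the membrane depolarizes. Sodium channels carry the upstroke of the action potential, calcium channels admit the calcium that triggers transmitter release and dendritic signalling, and potassium channels repolarize the membrane and set the firing rate. Each is built around a pore-forming alpha subunit that auxiliary subunits bring to the membrane and tune, and new granule cells of the DG acquire these currents as they mature from progenitors into neurons.

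After filtering by the authors, 64 fresh and 132 MeOH-fixed cells remained, with 534122 and 729018 UMIs. The plates share their well barcodes by design, and 24 well numbers held a filtered cell on both. The 8 identities deposited by the authors were neural intermediate progenitor cells (nIPCs) and neuroblasts, immature neurons, mature neurons, astrocytes and radial glia-like cells (RGLs), oligodendrocyte progenitor cells (OPCs), oligodendrocytes, endothelial cells and microglia. Marker lists of the 5 non-neuronal identities and of nIPCs and neuroblasts had their highest summed level in the identity they mark on both plates. The immature list was highest in nIPCs and neuroblasts on the fresh plate, and the mature list was highest in immature neurons on both plates. The 2 fresh cells called mature neurons had 0 UMIs of all 5 mature markers and of Snap25, and 1 of them had 2018 UMIs of the long non-coding RNA Kcnq1ot1. Those cells are therefore called by their deposited name only, and the sum between plates is also given without them.

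Of the 62 channel genes, 61 had a UMI in a filtered cell and Cacna2d4, a retinal alpha2delta subunit, had 0. Together they had 3488 UMIs. Levels are given as CPM, the UMIs of a gene scaled to a total of 1000000 UMIs in the cells named, with exact 95% Poisson intervals. The sum stood at 2108 CPM on the fresh (1987 to 2235, 1126 UMIs) and at 3240 CPM on the MeOH-fixed plate (3111 to 3373, 2362 UMIs). Since a transcript is counted once at its 3′ end, CPM was not divided by gene length. Between the plates, the paper reports a fresh over MeOH-fixed ratio that rose with exon length. Whether length bears on the plate differences of the channel genes was not tested.

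The channel genes were highest in neurons on both plates. Immature neurons held 5900 CPM when fresh (5424 to 6406, 5 cells) and 5039 when MeOH-fixed (4789 to 5298, 25 cells). Mature neurons of the MeOH-fixed plate held 5203 (4732 to 5709, 19 cells), which overlaps the level of immature neurons on that plate, and the 2 fresh cells of that name held 572 (230 to 1178) from 7 UMIs. In nIPCs and neuroblasts, the progenitors and the first cells to leave the cycle, the level was 1548 fresh (16 cells) and 1544 MeOH-fixed (21 cells), and 1441 and 899 without 5 cells that carried markers of Cajal-Retzius neurons, described with this identity. Among glia, OPCs stood at 2798 (5 cells) and 1330 (10 cells), oligodendrocytes at 1522 (2 cells) and 1532 (13 cells) and astrocytes and RGLs at 767 (18 cells) and 619 (29 cells). Endothelial cells had 309 and 243, and microglia, which serve as the low reference here, had 259 and 204 from 12 and 3 UMIs. Per cell, fresh immature neurons ranged from 4607 to 7398 with a median of 5861, and MeOH-fixed immature neurons from 1561 to 7113 with a median of 4851, so the cells of both plates overlapped. Fresh microglia ranged from 0 to 842 per cell and did not reach the lowest immature neuron of either plate. Other glia did overlap: fresh OPCs ranged from 1781 to 5470 per cell, into the range of fresh immature neurons. On the MeOH-fixed plate, astrocytes and RGLs reached 4127 and oligodendrocytes 3471, above the lowest immature neuron.

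**Figure D1:**
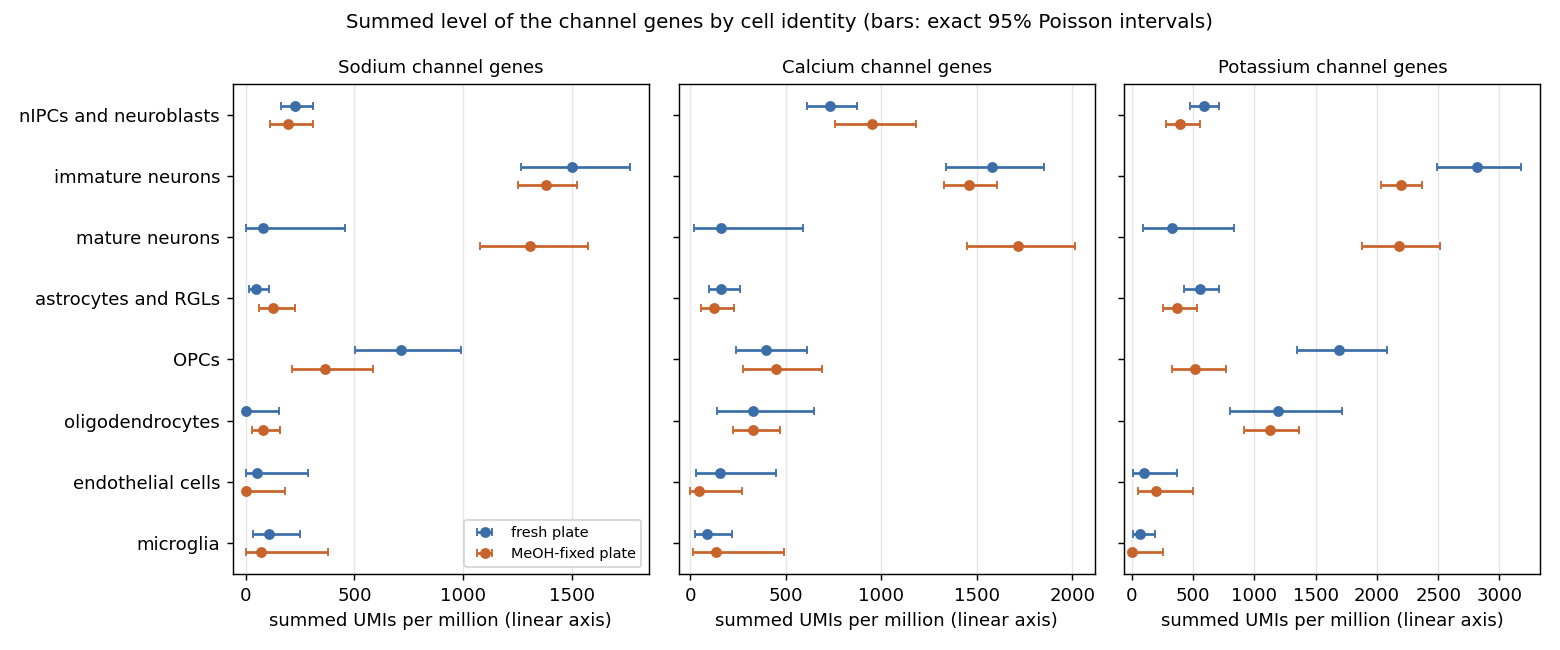
Summed level of sodium, calcium and potassium channel genes (CPM, linear axes) in the 8 identities, with fresh and MeOH-fixed plates as separate points and exact 95% Poisson intervals as bars. Sodium channel genes stand at 1498 and 1381 in immature neurons and at 228 and 193 in nIPCs and neuroblasts, whereas calcium channel genes stand at 734 and 954 in nIPCs and neuroblasts, or 685 and 484 without 5 cells that carry Cajal-Retzius markers.

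Among the pore-forming sodium channel genes, Scn8a, which encodes Nav1.6 of the axon initial segment, had the most UMIs (286). Scn8a lies on GRCm38 chr15:100869858-101045938. Its level in immature neurons was 468 CPM fresh (342 to 627) and 484 CPM MeOH-fixed (408 to 569), so the plates overlapped. Per cell it had 1 to 21 UMIs with a median of 8 in the fresh and 0 to 16 with a median of 6 in the MeOH-fixed immature neurons. All 5 fresh and 20 of 25 MeOH-fixed immature neurons had a UMI of it, against 0 of 10 and 0 of 7 microglia, where the median depth was 5102 and 2134 UMIs per cell compared with 28791 and 11563 in immature neurons. In MeOH-fixed mature neurons it stood at 560, and in nIPCs and neuroblasts at 96.7 fresh (17 UMIs) and 11.4 MeOH-fixed (1 UMI). Scn3a, which encodes Nav1.3 and is known from the developing brain, lies at chr2:65457118-65567627 and had 137 UMIs. It was counted in immature neurons at 250 (160 to 372) and 179 CPM (134 to 233) and in OPCs at 357 (212 to 565) and 193 (88.3 to 366), and in no astrocyte or microglial cell. Scn1a, which encodes Nav1.1, is annotated at chr2:66270778-66440840 and had 49 UMIs. Its level was 31.2 in fresh and 49.7 in MeOH-fixed immature neurons, 198 in MeOH-fixed mature neurons and 179 in fresh OPCs. The gene of Nav1.2 is listed in the table as Scn2a1, a symbol outside the selection, with 728 CPM in fresh and 381 in MeOH-fixed immature neurons.

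The sodium channel beta subunits are single-pass membrane proteins that anchor the pore and modify its gating. Scn3b (chr9:40269217-40291618) led them with 193 UMIs and stood at 416 CPM in fresh immature neurons (297 to 567) and 368 in MeOH-fixed ones (302 to 443). Scn2b stood at 72.8 and 99.4 in the same cells. Neither gene had more than 2 UMIs in any glial, endothelial or microglial identity of either plate. Summed over the beta subunits, the level of neuronal identities was 292 against 32.0 CPM in the other identities fresh, and 502 against 27.6 MeOH-fixed.

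Of the pore-forming calcium channel genes, Cacna1a, which encodes the P/Q-type channel of nerve terminals, had the most UMIs (137, chr8:84388440-84640246). It was also counted in nIPCs and neuroblasts, at 154 CPM fresh and 159 MeOH-fixed, compared with 250 and 136 in immature neurons. Without the cells that carried Cajal-Retzius markers, its level in nIPCs and neuroblasts was 148 and 124. Cacna1h, a low-voltage-activated T-type channel gene at chr17:25374285-25433783, stood at 156 in fresh and 109 in MeOH-fixed immature neurons and at 338 in MeOH-fixed mature neurons. The L-type gene Cacna1d stood at 93.7 and 39.8 in immature neurons, and the R-type gene Cacna1e at 72.8 and 69.6. Cacna1c, the other L-type gene, and Cacna1g, another T-type gene, had 15 and 13 UMIs in fresh nIPCs and neuroblasts but 2 UMIs each in the MeOH-fixed ones. Cacna1c shares its locus with Dcp1b on the opposite strand, and reads of such pairs cannot be assigned without strand, whose use in counting is not given in the sources used here.

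The alpha2delta subunits, which raise the number of calcium channels at the membrane, were led by Cacna2d1 (225 UMIs, chr5:15934691-16374511). Cacna2d1 stood at 281 and 341 CPM in immature neurons and at 385 in MeOH-fixed mature neurons. Cacna2d3 stood at 52.0 and 62.9 in immature neurons and was counted in no glial cell. Cacna2d2 (chr9:107399612-107529343) had a different distribution, with 7 and 17 UMIs in nIPCs and neuroblasts and 0 in immature and mature neurons of both plates. On the fresh plate its level was 59.5 in OPCs and 39.8 in nIPCs and neuroblasts. Over both plates, 5 nIPCs and neuroblasts that carried Cajal-Retzius markers held 23 of its UMIs, and the other 32 cells of this identity held 1. Of the cytoplasmic beta subunits, which carry the pore to the membrane, Cacnb4 stood at 302 and 258 in immature neurons, Cacnb3 at 219 and 113, and Cacnb2 at 0 and 76.2. Cacng2 and Cacng3, whose products are better known as auxiliary subunits of AMPA receptors, stood at 62.4 and 76.2 and at 52.0 and 96.1 in the same cells.

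Potassium channel genes made up the largest part of the sum, with 1603 of 3488 UMIs. Kcna1 (339 UMIs, chr6:126640397-126646384), which encodes the low-threshold channel Kv1.1, had the most UMIs of all 62 genes. It stood at 458 CPM in fresh and 427 in MeOH-fixed immature neurons, with 4 of 5 and 22 of 25 cells carrying a UMI. Kcnd2 (154 UMIs, chr6:21215503-21729805), which encodes the A-type channel Kv4.2 of dendrites, stood at 468 in fresh (342 to 627) and 225 in MeOH-fixed immature neurons (175 to 286), and these intervals did not overlap. Of the Kv3 channels that allow fast firing, Kcnc1 stood at 187 and 79.5 and Kcnc4 at 156 and 182. The delayed rectifier gene Kcnb2 was counted mainly in nIPCs and neuroblasts (68.3 and 45.4) and stood at 20.8 and 13.3 in immature neurons. Among the slower channels, Kcnh3 stood at 146 and 79.5. The cytoplasmic Kv beta subunits Kcnab2 and Kcnab1 stood at 177 and 166 and at 125 and 149.

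**Figure D2:**
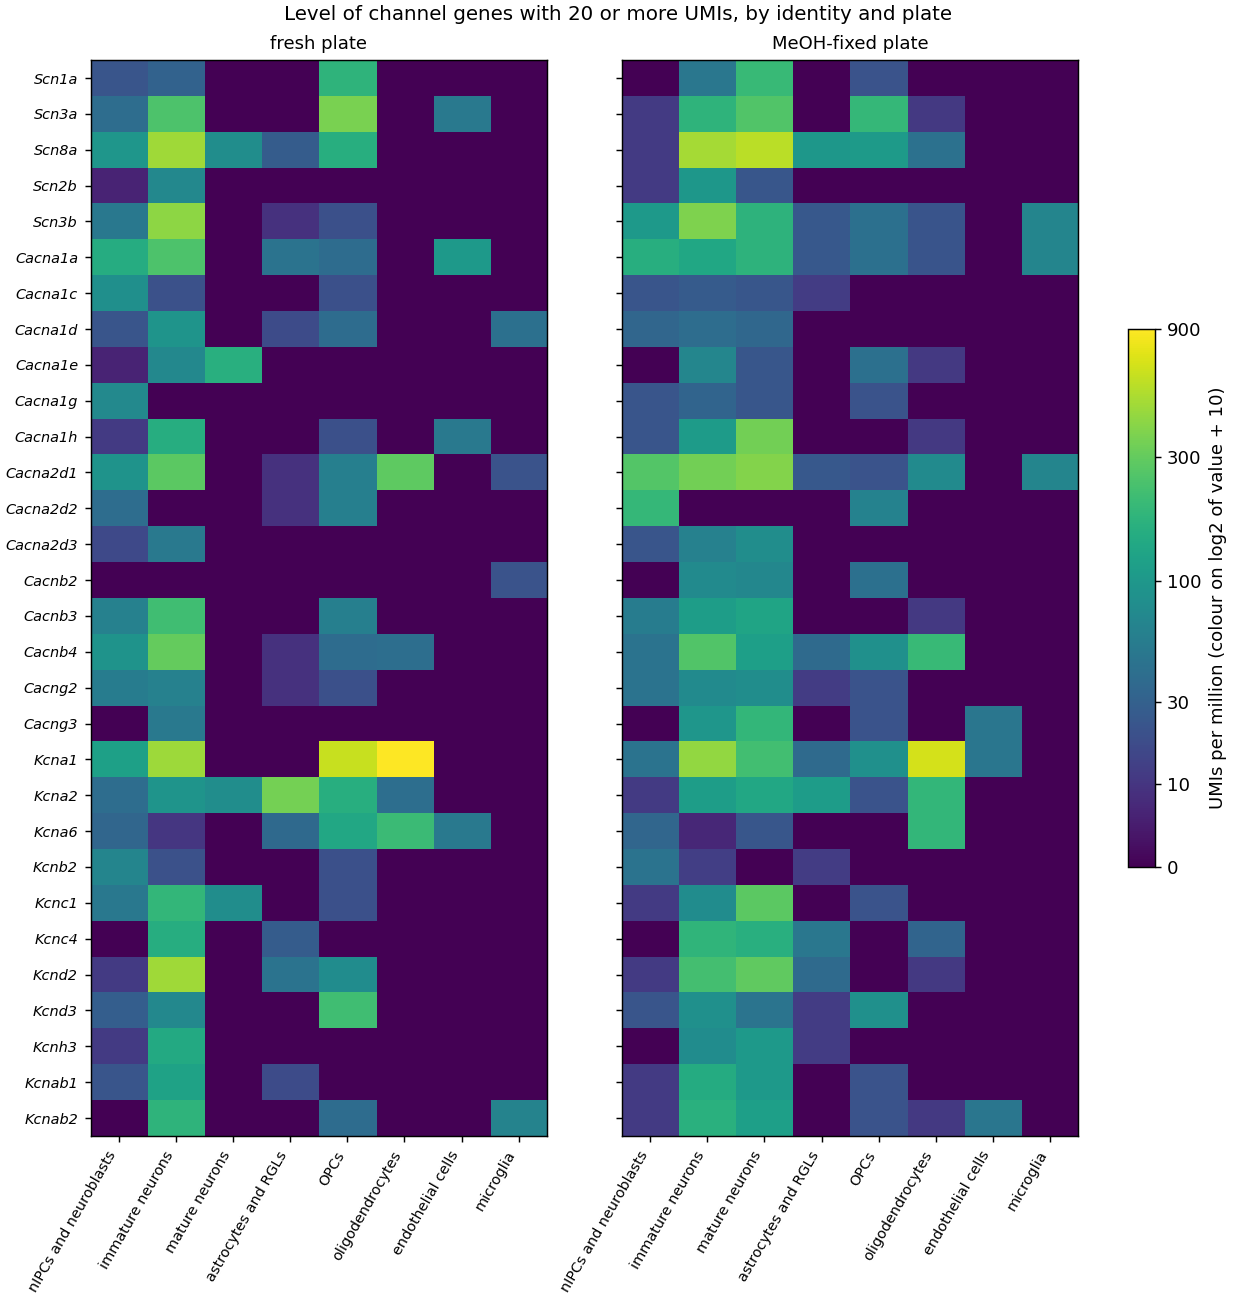
Level of 30 of the channel genes with 20 or more UMIs (rows) in the 8 identities (columns) of the fresh plate (left) and the MeOH-fixed plate (right), as CPM with colour on a log2 scale of the value plus 10. The bright columns are immature neurons on both plates and mature neurons on the MeOH-fixed plate, and Kcna1 reaches its highest values, 905 and 672, in oligodendrocytes.

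Genes of contrasting distribution are shown by the 250 bases upstream of their start, from RefSeq on GRCm38.p6, 5′ to 3′ on the strand of the gene, with CG pairs in capitals. Scn8a and Kcnd2 represent genes high in immature neurons. Cacna2d2 was counted in no immature neuron, and nearly all of its UMIs in nIPCs and neuroblasts were in cells with Cajal-Retzius markers. Kcna6 is a Kv1 gene with its highest level in oligodendrocytes. In this order, the windows lie at chr15:100870395-100870644 on the plus strand (the first of 2 listed starts of Scn8a), chr6:21215096-21215345 on the plus strand, chr9:107399630-107399879 on the plus strand and chr6:126740675-126740924 on the minus strand. No entry was given for Kcna1.
Scn8a: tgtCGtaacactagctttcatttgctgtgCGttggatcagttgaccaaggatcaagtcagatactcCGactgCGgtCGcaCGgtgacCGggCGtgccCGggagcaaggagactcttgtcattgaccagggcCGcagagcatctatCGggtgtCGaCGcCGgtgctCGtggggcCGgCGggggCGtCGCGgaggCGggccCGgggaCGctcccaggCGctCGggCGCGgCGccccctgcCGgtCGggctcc
Kcnd2: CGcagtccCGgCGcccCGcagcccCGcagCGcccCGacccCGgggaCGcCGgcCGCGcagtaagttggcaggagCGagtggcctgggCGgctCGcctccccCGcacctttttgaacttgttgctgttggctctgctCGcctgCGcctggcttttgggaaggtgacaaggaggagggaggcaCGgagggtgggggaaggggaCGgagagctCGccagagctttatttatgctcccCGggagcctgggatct
Cacna2d2: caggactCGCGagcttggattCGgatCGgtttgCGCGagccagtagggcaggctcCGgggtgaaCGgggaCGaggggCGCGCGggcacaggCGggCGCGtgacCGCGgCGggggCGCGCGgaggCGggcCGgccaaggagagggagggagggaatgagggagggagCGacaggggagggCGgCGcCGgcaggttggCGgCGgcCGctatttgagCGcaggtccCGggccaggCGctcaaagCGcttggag
Kcna6: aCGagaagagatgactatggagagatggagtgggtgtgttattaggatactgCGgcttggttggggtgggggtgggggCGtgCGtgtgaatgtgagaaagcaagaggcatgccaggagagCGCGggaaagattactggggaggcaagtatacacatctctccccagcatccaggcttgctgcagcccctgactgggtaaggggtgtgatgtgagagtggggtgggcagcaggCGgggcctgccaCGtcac
The windows hold 30, 22, 34 and 8 CG pairs in this order. The median was 10.5 over 62 windows of the 44 channel genes with an entry and 6 over 32851 windows of all genes. The GC box letters GGGCGG on either strand were found for 63.6% of the 44 channel genes and 35.4% of 27025 genes, and TATAAA for 2.27% and 14.3%. CANNTG, the E-box, was found for 70.5% and 69.3%, and CCAAT for 31.8% and 37.5%. A gene was scored if the window of any of its listed starts matched, so genes with more starts had more chances of a match. The 27025 genes were not limited to those counted in these cells. A match describes letters in the window and not a bound site.

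To compare neuronal and non-neuronal cells, counts were summed over the 3 neuronal identities (nIPCs and neuroblasts, immature and mature neurons) and over the other 5. Identities were clustered by the authors from the same counts, so this is a description. The summed level of fresh cells was 2978 against 1120 CPM, a difference of 1.41 on the log2 scale (1.21 to 1.61), and that of MeOH-fixed cells 4421 against 1022 CPM, a difference of 2.11 (1.93 to 2.30). The log2 difference was 1.79 and 3.05 for sodium, 2.23 and 2.48 for calcium and 0.89 and 1.56 for potassium channel genes, in the order fresh and MeOH-fixed. Of the 35 genes with at least 20 UMIs over both plates, 23 were more than 2-fold higher in neuronal cells on both plates, against 16.1% of all 8804 genes passing the same minimum, and 1 was more than 2-fold lower, against 13% of all. The median log2 difference of the 35 was 1.93 and 2.61, compared with 0.23 and 0.37 over all genes. The minimum is set on the sum of all cells, so a gene high in 1 identity can pass through that identity alone. The 23 comprised 4 of 6 sodium, 9 of 14 calcium and 10 of 15 potassium channel genes.

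By family, the beta subunits of sodium channels stood furthest apart, with 3.19 (2.15 to 4.45) fresh and 4.18 (3.12 to 5.51) MeOH-fixed, and the Kv1 to Kv4 pores least, with 0.66 (0.38 to 0.95) and 1.23 (0.97 to 1.50). Calcium channel beta subunits gave 3.12 and 1.71, and Cacnb4 held 18 UMIs in 7 of 13 MeOH-fixed oligodendrocytes.

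The clearest neuronal genes were those with few UMIs in glia. Scn3b was 4.43 higher on the log2 scale in fresh neuronal cells (2.50 to 7.52, 49 against 2 UMIs) and 3.36 higher in MeOH-fixed ones (2.28 to 4.70, 135 against 7 UMIs). Kcnc1 was 4.62 and 4.71 higher, with 1 UMI in non-neuronal cells of each plate. Cacna1h was 2.90 and 5.09 higher. These genes serve different steps of firing: Scn3b adjusts sodium channel gating, Kcnc1 repolarizes quickly and Cacna1h supports bursts. At the other end, Kcna1 differed by 0.11 (−0.44 to 0.66) and 0.23 (−0.19 to 0.66), and Kcna6, a further Kv1 subunit, was lower in neuronal cells, with log2 differences of −1.46 (−2.98 to −0.12) and −2.19 (−3.70 to −0.85). A few genes differed from plate to plate: Scn1a was −0.55 (−2.21 to 1.05) fresh and 4.09 (1.51 to 9.44) MeOH-fixed, where OPCs held 9 and 1 UMIs of it and mature neurons 0 and 17.

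**Figure D3:**
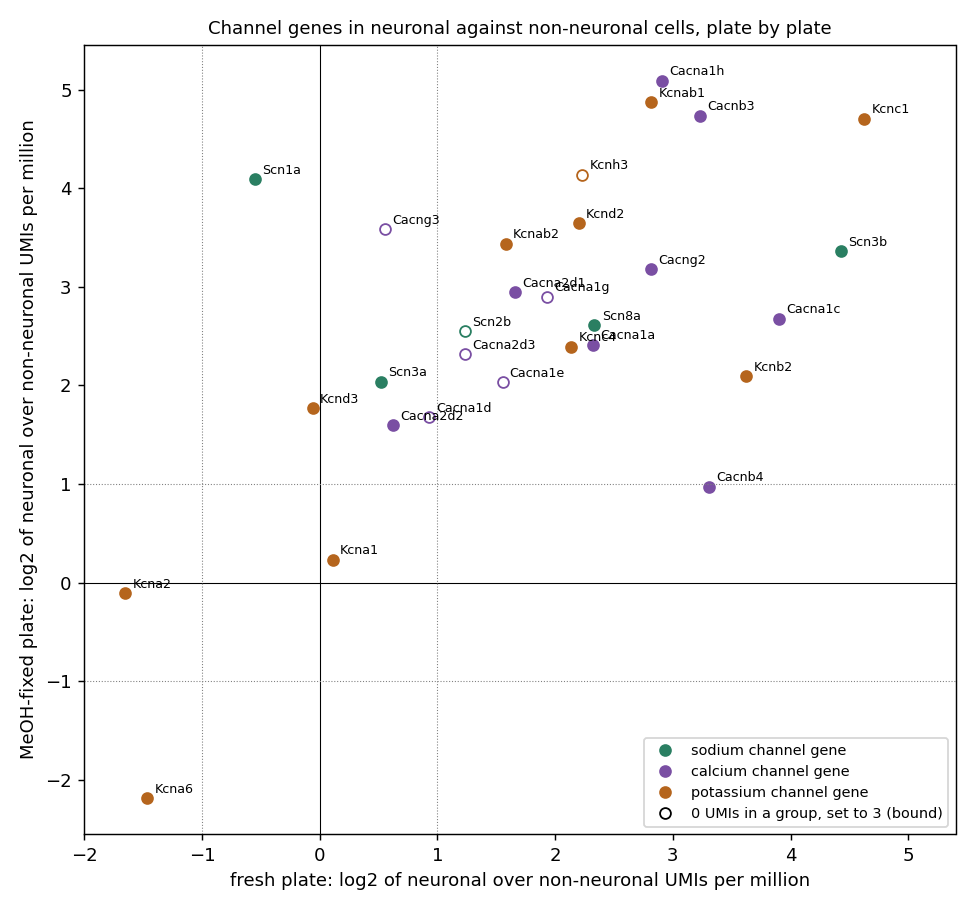
Log2 of neuronal over non-neuronal level for 29 channel genes, fresh plate on the x axis and MeOH-fixed plate on the y axis, coloured by ion, with open points where a group had 0 UMIs and was set to 3. Most points lie above 1 on both axes (dotted lines mark 2-fold), Kcna6 lies below −1 on both, and Cacnb2 is not drawn because the fresh plate gave no ratio.

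From nIPCs and neuroblasts to immature neurons, sodium and potassium channel genes differed more than calcium channel genes. The sum of all channel genes was 1.93 higher on the log2 scale in fresh immature neurons (1.72 to 2.14) and 1.71 higher in MeOH-fixed ones (1.45 to 1.97). Sodium channel genes were 2.72 and 2.84 higher, potassium channel genes 2.27 and 2.47, and calcium channel genes 1.11 and 0.62. Of 34 genes with at least 20 UMIs in these cells, 22 were more than 2-fold higher in immature neurons on both plates, against 14.9% of all 5965 genes, and 1, Kcnb2, was more than 2-fold lower, against 9.37% of all. The 22 held 5 of 6 sodium, 5 of 14 calcium and 12 of 14 potassium channel genes, and the median over the 34 was 1.94 and 1.87, compared with 0.06 and 0.18 over all genes. Kcnd2 was 5.36 higher fresh (3.43 to 8.45, 45 against 2 UMIs) and 4.31 higher MeOH-fixed (1.78 to 9.64, 68 against 1 UMI). Scn8a was 2.28 (1.44 to 3.17) and 5.41 (2.91 to 10.73) higher. Cacna1a gave 0.70 (−0.16 to 1.55) and −0.23 (−1.13 to 0.76), so its level in these identities did not differ beyond counting error.

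Part of the channel counts of nIPCs and neuroblasts came from cells that carried markers of another cell type. Of the 37 cells of this identity, 5 (1 fresh and 4 MeOH-fixed) had at least 20 UMIs of the Cajal-Retzius markers Reln, Ndnf and Lhx5, and the remaining 32 had 1 UMI in all. Those 5 cells held 23 of the 24 UMIs of Cacna2d2 in this identity and 22 of its 39 UMIs of Cacna2d1, but 0 UMIs of Scn8a, Kcna1 and Cacnb4. The summed channel level was 4370 CPM in the fresh cell and 4506 in the 4 MeOH-fixed cells, compared with 1441 and 899 in the other cells of the identity. They also held 49 of the 84 calcium channel UMIs of this identity on the MeOH-fixed plate (4 cells) and 13 of 129 on the fresh plate (1 cell). Without the 5 cells, the log2 difference between immature neurons and nIPCs and neuroblasts was 2.03 fresh and 2.49 MeOH-fixed for all channel genes. By ion it was 2.78 and 3.64 for sodium, 2.39 and 2.85 for potassium and 1.21 (0.85 to 1.57) and 1.59 (1.10 to 2.13) for calcium channel genes. Of 32 genes then at the minimum, 20 were more than 2-fold higher on both plates, against 15.6% of all, and 0 were more than 2-fold lower, against 9.39% of all.

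Mature neurons could be compared with immature neurons on the MeOH-fixed plate only. The median depth was 2554 UMIs per cell in mature and 11563 in immature neurons of that plate. Kcnq1ot1 stood at 13767 against 3392 CPM in these cells, and the summed mature marker list at 1377 against 1690. Whether depth, cell quality or the assignment of identities bears on the differences below was not tested. The summed channel level gave a log2 difference of 0.05 (−0.11 to 0.20). Of 29 genes with at least 20 UMIs in these cells, 3 (10.3%) were more than 2-fold higher in mature neurons, against 13% of all 4053 genes. Another 5 (17.2%) were more than 2-fold lower, against 26.6% of all. Differences past 2-fold were thus no more frequent among channel genes than among all genes. The median log2 difference was 0.14 compared with −0.32 over all genes. Scn1a stood at 198 against 49.7 CPM, which is 3.99-fold (log2 interval 0.91 to 3.10), Kcnc1 at 280 against 79.5 (log2 difference 1.82, 0.94 to 2.70) and Cacna1h at 338 against 109 (1.63, 0.86 to 2.39). Among those lower in mature neurons were the beta subunits Scn2b (−2.09) and Scn3b (−1.07, −1.96 to −0.29), with Cacnb4 (−1.15) and Cacna1e (−1.58, −4.71 to 0.46). Pore-forming sodium channel genes gave 0.52 (0.15 to 0.88) and their beta subunits −1.25 (−1.93 to −0.64). Gad1, which encodes an enzyme of GABA synthesis, stood at 338 CPM in mature and 209 in immature neurons of this plate, while Gad2 had 0 UMIs. Slc32a1, another marker of GABA neurons, was not among the listed genes. A UMI of Gad1 was present in 11 of 19 mature and 23 of 25 immature neurons. Since most immature neurons carried it, a Gad1 UMI cannot be read as separating GABA neurons from other neurons here. Among cells with such a UMI, the log2 difference was 1.61 (0.17 to 2.94) for Scn1a, 1.40 (0.22 to 2.48) for Kcnc1 and 2.04 (1.21 to 2.86) for Cacna1h. In the 8 mature neurons without it, Scn1a had 9 UMIs in 2 cells, Kcnc1 13 UMIs in 3 cells and Cacna1h 6 UMIs in 3 cells. For Cacna1h the log2 difference without it was 0.27 (−2.77 to 5.79), where the 2 immature neurons held 1 UMI.

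Outside the neurons, oligodendrocytes, which wrap axons in myelin, carried Kv1 channel genes. Kcna1 stood at 905 CPM in fresh oligodendrocytes (567 to 1370, 22 UMIs in 2 of 2 cells) and at 672 in MeOH-fixed ones (514 to 864, 61 UMIs in 12 of 13 cells), its highest level in any identity of either plate. The interval of immature neurons overlapped with that of fresh oligodendrocytes (333 to 615) but not with that of MeOH-fixed ones (357 to 508). Microglia had none in 10 and 7 cells, with floors of 3 counts at 64.7 and 204 CPM. Kcna6 (chr6:126708329-126740674) stood at 206 and 187 in oligodendrocytes, with 5 UMIs in 1 of 2 and 17 UMIs in 10 of 13 cells. Kcna1 and Kcna6 were the only genes of the 35 whose highest level was in the same non-neuronal identity on both plates. Kcna2, which assembles with Kcna1 in many axons, was highest in astrocytes and RGLs on the fresh plate at 347 (245 to 476, 38 UMIs in 12 of 18 cells) but stood at 111 in the MeOH-fixed ones (51.0 to 212, 9 UMIs in 6 of 29 cells), whereas MeOH-fixed oligodendrocytes held 187 (17 UMIs in 3 of 13 cells).

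OPCs carried sodium channel and A-type potassium channel genes. Scn3a stood at 357 CPM in fresh (212 to 565, 4 of 5 cells) and 193 in MeOH-fixed OPCs (88.3 to 366, 4 of 10 cells), Kcnd3, which encodes Kv4.3, at 218 and 85.8, and Scn1a at 179 and 21.4. The fresh OPCs also held 31 UMIs of Kcna1, all in a single cell that had 1075 UMIs of oligodendrocyte markers and 0 of the OPC markers Pdgfra and Cspg4. Another cell, on the MeOH-fixed plate, also had at least 100 UMIs of oligodendrocyte markers and none of both OPC markers. Without these 2 cells, Kcna1 had 0 UMIs in the 4 remaining fresh and 1 UMI in the 9 remaining MeOH-fixed OPCs, and Scn3a stood at 478 and 213. The summed channel level of OPCs was lower on the MeOH-fixed plate, with a log2 difference of −1.07 (−1.53 to −0.63) with these 2 cells and −1.28 (−1.79 to −0.77) without them. With the limit at 20 UMIs of oligodendrocyte markers 3 such cells were left out, and the difference was −1.23 (−1.74 to −0.72).

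Between the plates, the sum of channel genes was 0.62 higher on the log2 scale on the MeOH-fixed plate (0.52 to 0.72). By ion, sodium channel genes were 0.88 higher (0.65 to 1.10), calcium channel genes 0.68 (0.49 to 0.87) and potassium channel genes 0.46 (0.31 to 0.61). Of the 35 genes, 12 were more than 2-fold higher, against 10.6% of all 8804 genes, and 1, Kcnb2, was more than 2-fold lower, against 9% of all. The median was 0.60 compared with 0.09 over all genes, and 28 of 35 lay above 0. Among the 12 were Scn8a, Scn2b, Scn3b, Cacna1h, Cacna2d1, Cacna2d3, Cacnb2, Cacng3, Kcnc4, Kcnab1 and Kcnab2. Scn8a stood at 139 fresh and 291 CPM MeOH-fixed and Cacna2d1 at 103 and 233, whereas Kcnb2 stood at 28.1 and 12.3 with an interval of the log2 difference that included 0 (−2.56 to 0.10). The 12 log2 differences ran from 1.03 (Scn3b) to 4.51 (Cacnb2). By family, alpha2delta subunits and Cacng subunits were each 1.11 higher, Kv beta subunits 1.07 and sodium channel beta subunits 0.99, whereas pore-forming calcium channel genes gave 0.19 (−0.12 to 0.50) and Kcnh genes 0.11. For Cacng3 and Kcnc4, a single cell held 28.8% and 26.6% of the UMIs.

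The plates also differed in cell make-up, and whether this bears on the plate difference of the channel genes was not tested. Immature neurons supplied 18.0% of all UMIs fresh and 41.4% MeOH-fixed, and mature neurons 2.29% and 11.8%, whereas nIPCs and neuroblasts supplied 32.9% and 12.1%. Within immature neurons, the sum was lower on the MeOH-fixed plate, with a log2 difference of −0.23 (−0.37 to −0.09), and within nIPCs and neuroblasts the difference was −0.00 (−0.31 to 0.30), where the levels without the 5 cells of Cajal-Retzius markers were 1441 fresh and 899 CPM MeOH-fixed. Over all cells it was 0.60 without the 2 fresh cells called mature neurons. With the 8 identities weighted equally the difference was 0.20, and 7 genes were more than 2-fold higher. With equal weight of the 7 identities other than mature neurons it turned to −0.32, and 3 genes were more than 2-fold higher and 6 lower. Within immature neurons, 1 of 29 genes was more than 2-fold higher on the MeOH-fixed plate, against 13.9% of all 4029 genes, and 3 were more than 2-fold lower, against 7.12% of all, with a median of −0.10 compared with 0.11 over all genes. Of the 12 genes above, Scn8a then differed by 0.05 (−0.44 to 0.56), Scn3b by −0.18 (−0.71 to 0.38), Kcnc4 by 0.22 (−0.62 to 1.15) and Cacna1h by −0.51 (−1.43 to 0.47). In the same cells, levels were higher MeOH-fixed for Cacng3 (52.0 fresh and 96.1 CPM), Scn2b (72.8 and 99.4) and Cacna2d1 (281 and 341). So were those of Cacna2d3 (52.0 and 62.9) and Kcnab1 (125 and 149), whereas Kcnab2 was lower (177 and 166). Most of the fresh immature UMIs came from 3 of the 5 cells, with 144, 213 and 185 channel UMIs against 19 and 6.

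The gene more than 2-fold higher in MeOH-fixed immature neurons was Cacnb2 (chr2:14603088-14987908), a calcium channel beta subunit. It had 1 UMI among fresh cells, in a microglial cell, and 31 in 18 of the MeOH-fixed cells, a log2 difference of 4.51 (1.92 to 9.85). The 5 fresh immature neurons had 0 and the 25 MeOH-fixed ones 23. With the fresh count set to the floor of 3, the log2 difference was 1.29, which is not a lower limit for counting error. On the annotation, 7 genes overlap Cacnb2 on its own strand and 8 on the other. The 3 genes lower in MeOH-fixed immature neurons were Kcnd2 (−1.06, −1.62 to −0.48), Kcnc1 (−1.24, −2.18 to −0.27) and Cacna1d (−1.24, −2.61 to 0.19).

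**Figure D4:**
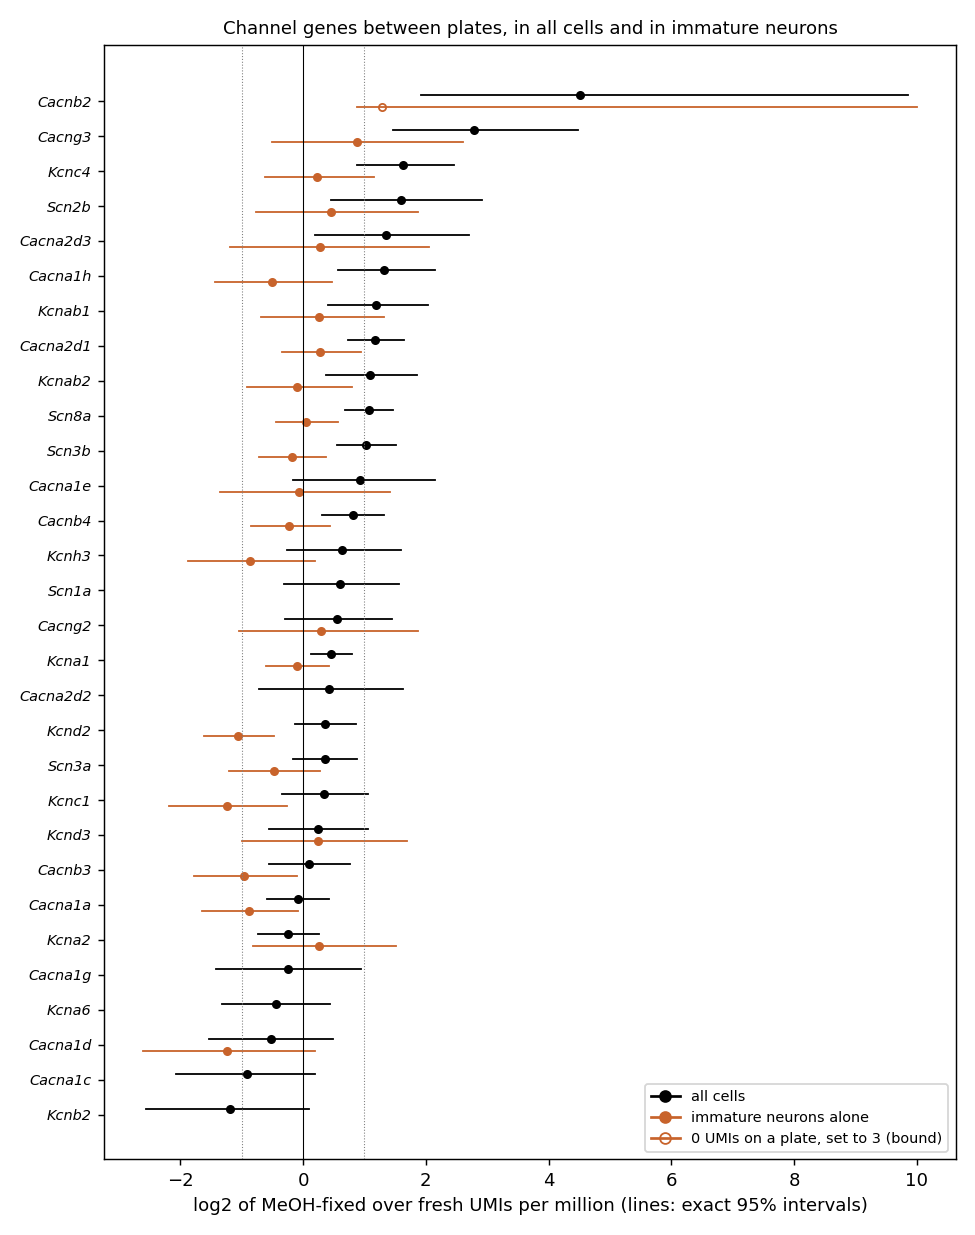
Log2 of MeOH-fixed over fresh level for 30 channel genes, in all cells (black) and in immature neurons alone (orange, where the gene had 20 or more UMIs there), with exact 95% intervals as lines and dotted lines at 2-fold. The sum over all cells is 0.62 higher, and in immature neurons most points move to the left, with Kcnd2 at −1.06 and Scn8a at 0.05.

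The number of channel genes with a UMI per cell depends on how deeply the cell was counted, so it is given with its depth. The median was 10 in fresh neuronal cells (1 to 31, 23 cells) and 9 in MeOH-fixed neuronal cells (0 to 33, 65 cells), where the median depth was 11235 and 4881 UMIs. In non-neuronal cells it was 2 (0 to 17, 41 cells) and 1 (0 to 11, 67 cells) at median depths of 5504 and 2648. After each cell was thinned to 800 UMIs, with no cell left out, the medians were 1 and 3 in neuronal and 0 and 0 in non-neuronal cells, and 73.9% and 86.2% of neuronal cells had any channel UMI, against 34.1% and 41.8% of non-neuronal cells.

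Partners and related channels were read from lists of 61 genes outside the selection, of which 50 were in the table and 29 had at least 20 UMIs. Of these 29, 12 were more than 2-fold higher in neuronal cells on both plates, against 16.1% of all genes, and 6 more than 2-fold lower, against 13% of all. The counts of single lists below are of few genes each. Among the partners of Kv4 channels, 3 of 4 were higher: Kcnip2, a calcium-binding subunit that speeds recovery of Kv4.2, was 5.43 and 3.44 higher on the log2 scale in neuronal cells, Dpp6, an auxiliary subunit of Kv4 channels, 3.36 and 1.21, and Kcnip4 2.40 and 3.09. For Kcnip4, the non-neuronal cells of both plates had 0 UMIs, set to 3. Of 7 partners of sodium channels at the axon initial segment, 3 were higher and 1 lower: Fgf13, which binds the channel's tail, was 2.86 and 2.75 higher, the scaffold gene Ank3 gave 2.14 and 0.92, and the adhesion gene Nfasc, which glia also use at nodes, −3.60 and −3.64. Of 6 inward rectifier genes, 2 were higher and 3 lower, with Kcnj10, the glial potassium buffer, at −5.47 and −6.45 and Kcnj4 at 0 UMIs in non-neuronal cells of both plates. Of 4 calcium- and sodium-activated channel genes 3 were higher, led by Kcnma1, the BK channel, with 3.62 and 2.63, while Kcnn2, an SK channel, gave 0.01 and −1.49. Of 3 silent Kv subunits 1, Kcnf1, was higher, with Kcnv1 at 5 and 27 and Kcng2 at 3 and 27 UMIs in neuronal cells. Of 4 K2P leak channel genes 1, Kcnk13, was lower and none higher, where Kcnk1 gave 1.21 and 0.18 and Kcnk2 0.03 and 1.24. The single pacemaker channel gene past the minimum, Hcn2, was lower in neuronal cells at −1.56 and −2.06.

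Ranked by level, 22 of the 35 genes were highest in immature neurons on the fresh plate, whereas 15 were highest in immature and 15 in mature neurons among MeOH-fixed cells. With mature neurons left out, the highest identity was shared by both plates for 26 of 35, namely immature neurons for 22, oligodendrocytes for 2, OPCs for 1 and nIPCs and neuroblasts for 1.

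The other 27 channel genes had under 20 UMIs each, and 15 of them had 1 to 3. They include genes known from muscle, heart or sensory neurons, such as Cacna1s (1 UMI), Kcna5 (1 UMI) and Scn9a (3 UMIs). The most counted was Kcnh1, an EAG channel gene, with 19 UMIs, of which 18 were in neuronal cells. Cacng5, a further gene of an auxiliary subunit of AMPA receptors, had 15, of which 6 were in fresh astrocytes and RGLs and 5 in MeOH-fixed nIPCs and neuroblasts. Kcnq3 and Kcnq5, both of the M-current, had 10 UMIs each, Kcnh7, an ERG-type channel gene, had 9 and the Kv beta subunit gene Kcnab3 had 6. At this depth, the floor of 3 counts corresponds to 5.62 CPM for the fresh and 4.12 CPM for the MeOH-fixed cells. For a count of 0, as for Cacna2d4, the exact Poisson interval reached up to 6.91 CPM for the fresh and 5.06 CPM for the MeOH-fixed cells.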

How the data were processed

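Filtered single-cell counts of 2 SORT-seq plates, 1 fresh and 1 MeOH-fixed, were used. Per the labels and the methods of the study, the authors aligned reads with STAR to GRCm38, discarded multi-mapping reads, removed duplicates with the UMIs and corrected the UMI numbers for the 4096 possible UMIs. The deposited values are therefore expected counts. The authors then filtered barcodes in Seurat 4.1.0 under R 4.2.0. The authors also deposited the mitochondrial percentage of each cell, used for an alternative filter, and the identity of each cell, clustered from the same counts. Whether counting used strand is not given in the sources used here.

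The adjustment was inverted, which gave whole UMIs for every value (largest distance from a whole number 3.64e-12), since the counting intervals need whole numbers. UMIs were summed per plate and identity and divided by the total to give CPM. With 1 plate per condition no test was possible, and none was made from cells. Intervals are exact Poisson for levels, exact Clopper-Pearson for shares and exact conditional binomial for ratios, at 95%. They cover counting error only, at 534122 UMIs in 64 fresh and 729018 in 132 MeOH-fixed cells. A count of 0 was set to a floor of 3 counts. Genes with at least 20 UMIs in the cells compared entered counts past 2-fold. No doublet caller was run, since single cells were gated by scatter and sorted into wells. Named genes are the 3 with most UMIs of each family, those with at least 30 UMIs past 2-fold between plates and those highest in the same non-neuronal identity of both plates, with a few others chosen after their values were seen. A few genes are not reported here by name or drawn, and counts and sums include them. The genes, lists and rules were chosen with earlier results of these data known. Gene positions are from the annotation of GRCm38 and upstream windows from RefSeq on GRCm38.p6. The interval and ratio steps were tested on simulated data. Computation used Python 3.11.15 with scipy 1.17.1, numpy 2.4.6, pandas 2.3.3 and, for plots, matplotlib 3.10.9.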

Additional observations from a re-analysis of the deposited data

Results flagged for a closer look

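The MeOH-fixed and fresh plates differed in opposite directions in different identities, and in each case the difference between identities was not tested. The summed channel level was higher on the MeOH-fixed plate in mature neurons (3.19 on the log2 scale, 7 against 446 UMIs, where the 2 fresh cells had none of the 5 mature markers), but lower in immature neurons (−0.23) and in OPCs (−1.07). Cacna2d1 was higher on the MeOH-fixed plate in nIPCs and neuroblasts (1.52, 16 against 23 UMIs, most of the latter in cells with Cajal-Retzius markers). In mature neurons it was also higher (0 against 33 UMIs), by 0.65 with the count of 0 set to 3 (interval from 0.27). It was lower in oligodendrocytes (−1.90, 7 UMIs on each plate), where 1 of the 2 fresh cells held all 7 fresh UMIs. Scn8a was higher in mature neurons (2.78, 1 against 48 UMIs) and lower in nIPCs and neuroblasts (−3.09, 17 against 1 UMI).

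Channel genes were also counted in barcodes that did not pass the filter of the authors, which enter no comparison. Their summed level was 2447 CPM in 320 fresh barcodes (2195 to 2720, 343 UMIs) and 1614 CPM in 252 MeOH-fixed barcodes (1353 to 1910, 135 UMIs). These barcodes include the wells that were left empty as controls, which were not separated here.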

How the results depend on the processing

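Over 13 results and 77 alternatives, 46 values moved by less than the counting interval or within 1.5 times a count, 28 moved further and 3 turned in direction. The cause was not tested unless the alternative leaves out cells by construction. The log2 difference of the channel sum between plates (0.62) was 0.86 after thinning each cell to 800 UMIs, 0.20 with equal weight of identities, −0.32 with equal weight of the 7 identities other than mature neurons, 0.47 without mature neurons, −0.23 in immature neurons and −0.00365 in nIPCs and neuroblasts. The 12 genes past 2-fold higher were 7 with equal weight, 3 with equal weight of those 7 identities, 19 at 1.5-fold and 4 at 3-fold. The single gene past 2-fold lower became 0 with equal weight, at 50 UMIs, at 3-fold and without the cell of most UMIs, 2 at 10 UMIs, at 1.5-fold and without mature neurons, 4 with no minimum and 6 with equal weight of the 7 identities. The fresh neuronal difference (1.41) was 1.77 after thinning and 2.24 without nIPCs and neuroblasts, and the MeOH-fixed one (2.11) was 2.31 without them. The 23 genes higher in neuronal cells were 24 without mature neurons and 15 at 4-fold, and the single lower gene was 0 at 4-fold and at 50 UMIs. The MeOH-fixed difference of immature neurons over nIPCs and neuroblasts (1.71) was 1.14 after thinning and 2.49 without 5 cells of Cajal-Retzius markers. Thinning took the median channel genes per cell from 10 to 1 and from 9 to 3 in neuronal cells and from 2 and 1 to 0 and 0 in other cells. Of these alternatives, 12 were added after the data were seen. Median-of-ratios scaling moved all genes by 0.06 on the log2 scale.

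No paired analysis was possible because each condition is 1 plate, and leave-one-out of replicates does not apply to such a design. Pools of different mice, the stain used to sort and fixation cannot be told apart. The 5 fresh immature neurons and the 2 fresh cells called mature neurons limit comparisons of neurons between plates.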
